A study of Mus musculus with 2 samples.

Results

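The genes described here carry the aldosterone response of the distal kidney tubule: Scnn1a, Scnn1b and Scnn1g, which encode the subunits of the epithelial sodium channel, Nr3c2 (the mineralocorticoid receptor), Sgk1 (an aldosterone-induced kinase), Nedd4l (a ubiquitin ligase of the channel) and Hsd11b2 (11-beta-hydroxysteroid dehydrogenase type 2). They were chosen by symbol, and all 7 were found among the 32285 genes of both count matrices. Nuclei from frozen mouse kidney had been captured with the 10x Genomics Chromium system and their RNA sequenced. The nephrectomy library came from T1+/+ male mice aged 11 weeks at surgery, in which the right kidney was taken out, the poles of the left kidney were tied off 1 week later, and tissue was collected 4 weeks after surgery. The sham library came from animals whose flanks were opened and closed and whose kidneys were exposed only, also collected 4 weeks after surgery, with no age or genotype of their own in the labels. The labels do not say what T1+/+ stands for, how many animals were pooled, or which zone of the kidney was taken.

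Aldosterone enters the cells of the late distal convoluted tubule, connecting tubule and collecting duct and binds the mineralocorticoid receptor, which then activates transcription. The Hsd11b2 enzyme inactivates glucocorticoids in these cells, which would otherwise occupy the same receptor. Among the induced genes is Sgk1, whose product phosphorylates the Nedd4l ligase and so keeps it from removing the sodium channel from the apical membrane, where the channel sets the last step of sodium reabsorption.

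In the GENCODE M21 annotation of GRCm38, Scnn1a lies on the plus strand at chr6:125320659-125344943. Scnn1g and Scnn1b lie in the same orientation on chromosome 7, at chr7:121734479-121768475 and chr7:121865038-121918514, 96562 bases apart. Nr3c2 is at chr8:76899442-77245012, Hsd11b2 at chr8:105518755-105523988 and Sgk1 at chr10:21882184-21999903. Scnn1b overlaps Cog7, a Golgi-complex gene on the minus strand, over 39152 bases, and Nr3c2 overlaps 3 non-coding gene models. The sources used here do not state how strand was handled in the counting, so whether UMIs from overlapping stretches were kept apart is not known here. RefSeq promoter windows (GRCm38.p6, 250 bases before to 50 bases after a gene start) were read for Scnn1g, Scnn1b, Nr3c2 and the 6 annotated starts of Sgk1. They were searched on both strands for the hormone response element that the mineralocorticoid and glucocorticoid receptors share, as the palindrome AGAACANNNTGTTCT and as its half-site AGAACA. The palindrome occurred in 3 of 32815 distinct windows (0.00914%), and among the windows read for these genes it occurred in 1 of Sgk1, at chr10:21993640-21993939 on the plus strand. The window is shown because Sgk1 is the induced kinase of the group, with the palindrome in capitals, 174 bases before the annotated start.
Sgk1: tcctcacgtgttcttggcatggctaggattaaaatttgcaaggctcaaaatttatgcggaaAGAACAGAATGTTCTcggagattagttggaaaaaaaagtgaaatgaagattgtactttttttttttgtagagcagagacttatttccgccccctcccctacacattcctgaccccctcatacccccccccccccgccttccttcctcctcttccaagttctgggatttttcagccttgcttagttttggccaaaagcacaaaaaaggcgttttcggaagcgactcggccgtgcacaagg
The half-site, which the palindrome contains, occurred in 19.0% of all windows. It was present in 3 of the Sgk1 windows and in none of the Scnn1g, Scnn1b and Nr3c2 windows. A match describes the letters of the window only.

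After filtering, 3043 nephrectomy and 2846 sham nuclei remained, with 25818445 and 19398587 unique molecular identifiers (UMIs) and medians of 7006 and 5286 UMIs per nucleus. Clustering gave 22 clusters, made without the 7 genes and the 61 genes of the pathway lists below, and 11 classes of nuclei were compared. Levels are UMIs per 1000000 UMIs of the class (CPM). Because nuclear counts depend on gene length, levels were compared between libraries and classes and not between genes. Connecting tubule-like nuclei (133 nephrectomy, 94 sham) were rich in Slc8a1, principal-like nuclei (80 and 71) held 495 and 449 CPM of Aqp2, and distal convoluted tubule-like nuclei (210 and 146) held 11641 and 10843 CPM of Slc12a3. Intercalated type A-like nuclei numbered 40 and 31, and type B-like nuclei 53 and 33. Each group was 1 library, so the 95% intervals cover counting error alone, no difference has a replicate check, and no p-value is given. In every distal class the median depth was higher in the nephrectomy library, for example 9076 against 6382 UMIs in connecting tubule-like and 8025 against 5134 UMIs in principal-like nuclei. Results for nuclei are therefore also given after thinning to 1000 UMIs, as the expectation over all draws.

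The channel subunits had different ranges along the nephron. Scnn1a was spread over the whole distal nephron, with 264 CPM in nephrectomy and 253 CPM in sham principal-like nuclei, and 163 and 180 CPM in thick ascending limb-like nuclei. Its neighbours in this order, from principal-like to thick ascending limb-like nuclei, overlapped in their intervals in both libraries. Scnn1b and Scnn1g were concentrated in connecting tubule-like and principal-like nuclei. Of Scnn1b, thick ascending limb-like nuclei had 17 UMIs in the nephrectomy library and 11 in the sham library. Of Scnn1g they had 0 UMIs in the nephrectomy library, which allows up to 3 counts, and 12 in the sham library. All 3 subunits were found together in 53.4% of nephrectomy (44.5 to 62.1) and 55.3% of sham (44.7 to 65.6) connecting tubule-like nuclei, and in 60% (48.4 to 70.8) and 45.1% (33.2 to 57.3) of principal-like nuclei. At 1000 UMIs per nucleus the expected shares were 2.48% of nephrectomy and 3.73% of sham connecting tubule-like nuclei, and 3.58% and 4.17% of principal-like nuclei, so in principal-like nuclei the order of the libraries differed from that of the unthinned shares, and no order is read from them. In proximal tubule-like nuclei, a segment without the channel, the share was 0.550% (0.202 to 1.19) and 0 of 998 nuclei, which allows up to 0.301%, at medians of 10710 and 9375 UMIs.

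The receptor and its enzyme followed the same segments to different degrees. Nr3c2 was highest in principal-like nuclei (2424 CPM in the nephrectomy and 2267 in the sham library) and connecting tubule-like nuclei (2379 and 2255), with overlapping intervals between these classes. It was lowest in proximal tubule-like nuclei, at 142 and 84.4 CPM. Hsd11b2 was highest in principal-like nuclei (371 and 473 CPM) and next in connecting tubule-like nuclei (188 and 348), and these classes did not overlap in either library. In distal convoluted tubule-like nuclei, Hsd11b2 had only 13 nephrectomy and 5 sham UMIs (5.97 and 3.80 CPM). Sgk1 was highest in blood endothelial-like nuclei (303 and 296 CPM), ahead of principal-like nuclei (209 and 161). Nedd4l was highest in intercalated type A-like nuclei (2357 and 2519) and type B-like nuclei (2281 and 2513). Its level in proximal tubule-like nuclei (964 and 889) was above that in distal convoluted tubule-like nuclei (485 and 555).

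**Figure D1:**
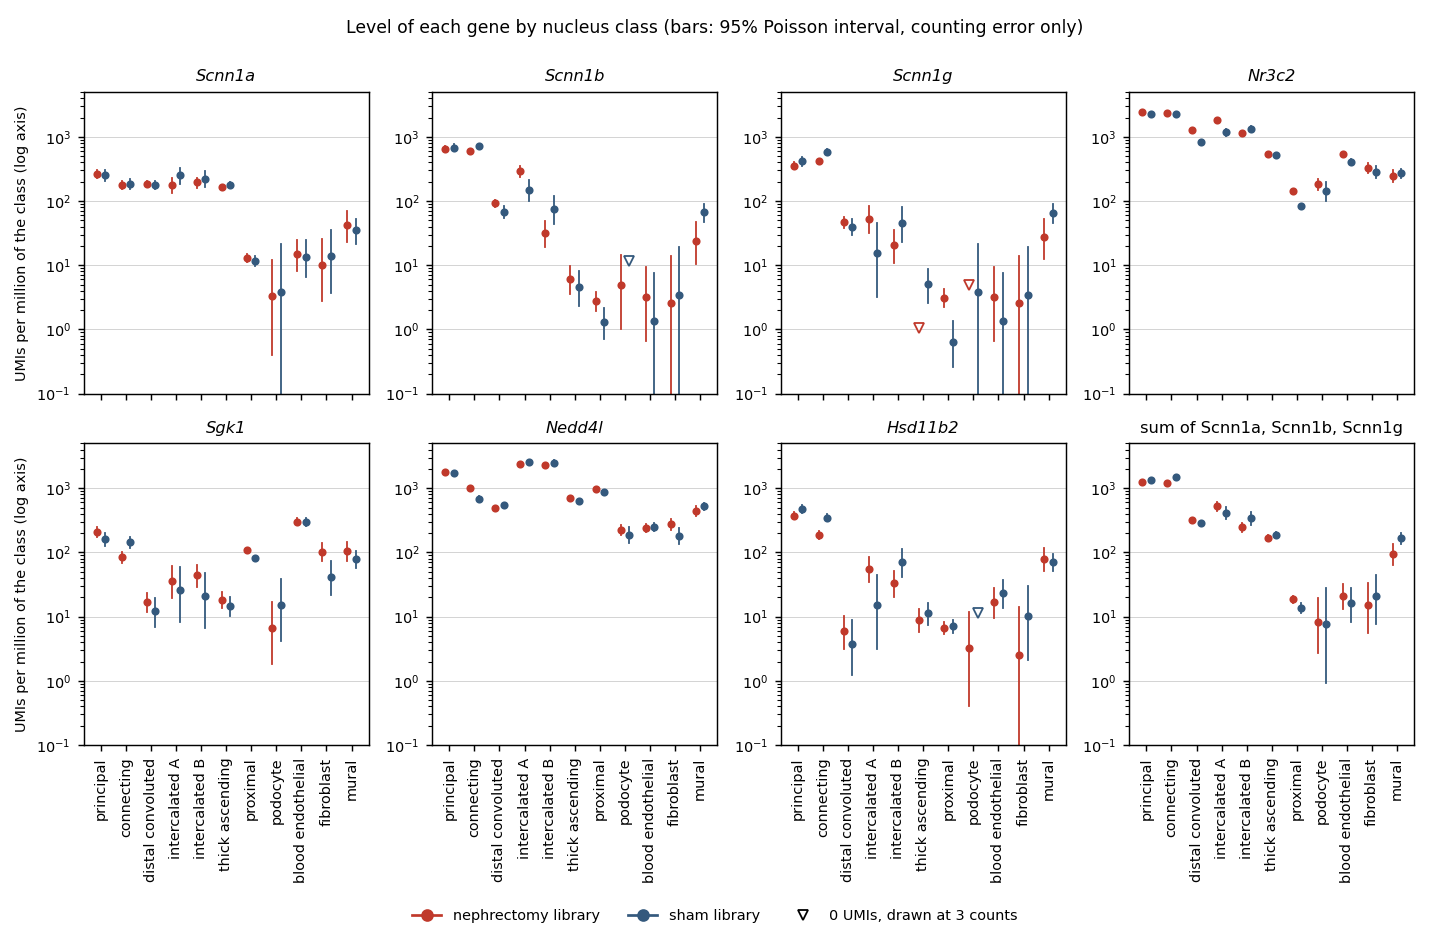
CPM of each gene (log axis) in 11 classes of nuclei, nephrectomy (red) beside sham (blue), with 95% Poisson intervals for counting error only; a triangle marks 0 UMIs, drawn at 3 counts. Scnn1b, Scnn1g and Hsd11b2 are concentrated in principal-like and connecting tubule-like nuclei, while Scnn1a, Nr3c2 and Nedd4l run along the whole distal nephron. Nedd4l is not limited to it, with 964 nephrectomy and 889 sham CPM in proximal tubule-like nuclei.

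A gene with 20 or more UMIs over both libraries was counted as higher where its CPM in the nephrectomy library was 1.5 times the sham CPM or more, and as lower where the sham CPM was 1.5 times the nephrectomy CPM or more. In the whole library 0 of the 7 genes were higher and 0 lower, where 9.63% of 17330 genes were higher and 10.8% lower. Connecting tubule-like nuclei had 0 of 7 higher and 2 of 7 lower (Hsd11b2 and Sgk1), beside 11.3% and 16.2% of 8780 genes. Principal-like nuclei had 0 higher and 0 lower of 7 (11.6% and 15.8% of 7582 genes). Of the 6 genes measured in distal convoluted tubule-like nuclei, 1 (Nr3c2) was higher and 0 were lower (8.91% and 16.6% of 10521 genes). Intercalated type A-like nuclei had 4 of 6 higher (Scnn1b, Scnn1g, Nr3c2 and Hsd11b2) and 0 lower (17.1% and 15.3% of 5305 genes), and type B-like nuclei had 1 of 7 higher (Sgk1) and 3 lower (Scnn1b, Scnn1g and Hsd11b2) (22.7% and 14.8% of 6761 genes). In thick ascending limb-like nuclei 0 of 6 were higher or lower (9.50% and 12.2% of 12045 genes), and in proximal tubule-like nuclei 3 of 7 were higher (Scnn1b, Scnn1g and Nr3c2) and 0 lower (11% and 11.6% of 14491 genes). The median log2 ratio of the 7 genes was -0.24 in connecting tubule-like and 0.06 in principal-like nuclei, against -0.03 and -0.02 over all genes measured in these classes.

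**Figure D2:**
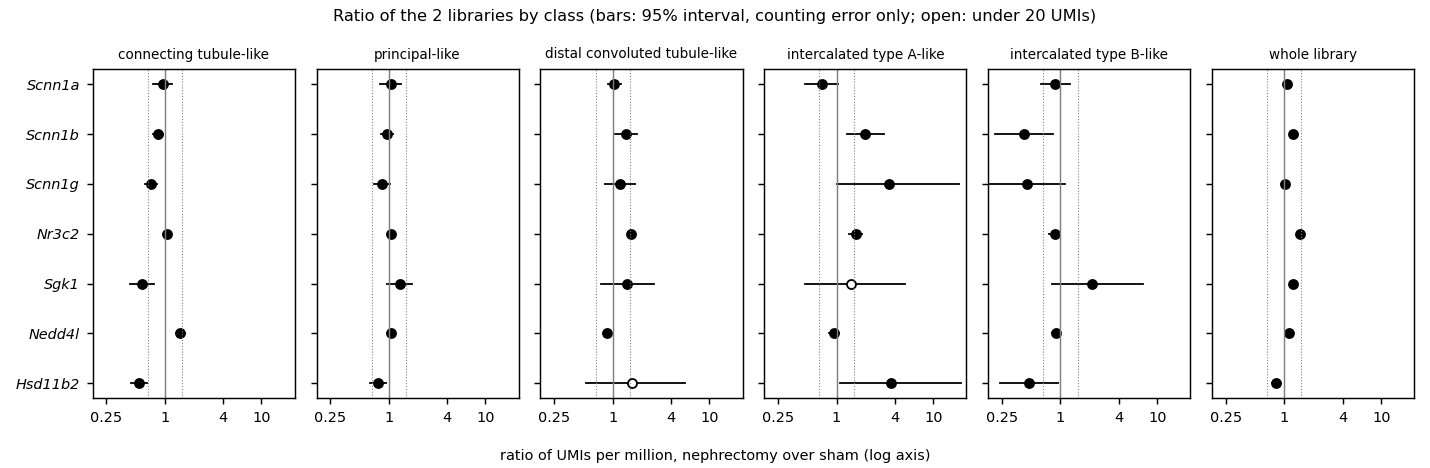
Ratio of CPM, nephrectomy over sham (log axis), for the 7 genes in 5 classes and the whole library; bars are 95% intervals for counting error only, dotted lines mark 1.5-fold either way, and open points have under 20 UMIs. In connecting tubule-like nuclei Hsd11b2 (0.539) and Sgk1 (0.584) lie left of the lower line, and Nedd4l (1.45) lies right of 1.

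In connecting tubule-like nuclei the beta and gamma subunit genes were below the sham level in the nephrectomy library, by less than 1.5-fold, while the interval of the alpha subunit gene included 1. Scnn1g stood at 416 CPM (509 UMIs) in the nephrectomy library and 576 (384 UMIs) in the sham library, a ratio of 0.721 (0.630 to 0.826). Scnn1b stood at 602 and 710 CPM, a ratio of 0.849 (0.755 to 0.955). Scnn1a stood at 176 and 184 CPM, a ratio of 0.955 (0.762 to 1.20). The sum of the 3 subunits was 1194 CPM in nephrectomy and 1470 in sham nuclei, a ratio of 0.812 (0.749 to 0.882), which does not reach the 1.5-fold limit. At 1000 UMIs per nucleus, a UMI of Scnn1g was expected in 32.6% of nephrectomy and 43.0% of sham connecting tubule-like nuclei, against 0.292% and 0.127% of proximal tubule-like nuclei; unthinned, the connecting tubule shares were 81.2% (73.5 to 87.5) and 91.5% (83.9 to 96.3). When nuclei were clustered anew after a stricter barcode filter, the ratio of the sum was 1.00, while the same filter within the present classes gave 0.819.

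The subunit sum was also below the sham level in both sub-clusters that held most of the connecting tubule-like class. In sub-cluster 1, led by genes such as Kcnj3 and Kcne1 (62 nephrectomy and 50 sham nuclei), the subunit sum was 1334 and 1627 CPM, a ratio of 0.820 (0.735 to 0.916). In sub-cluster 4, led by genes such as Klk1 and the calcium channel gene Trpv5 (41 and 30 nuclei), it was 994 and 1279 CPM, a ratio of 0.778 (0.669 to 0.905). Scnn1g had ratios of 0.738 (0.615 to 0.888) in sub-cluster 1 and 0.697 (0.539 to 0.903) in sub-cluster 4. Sub-cluster 1 met no naming rule. A further sub-cluster of 25 nephrectomy and 12 sham nuclei carried proximal tubule markers, and without the sub-clusters that bore another cell type's name the subunit ratio of the class was 0.822. The sub-clusters were drawn from the same 2 libraries and are not replicates.

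Principal-like nuclei as a class had nearly equal channel levels, with a subunit sum of 1268 CPM in the nephrectomy and 1345 in the sham library and a ratio of 0.943 (0.847 to 1.05). Their sub-clusters went in different directions. Sub-cluster 5, led by genes such as Spock3 and Mgat4c (32 and 38 nuclei), had 1414 CPM in nephrectomy and 1700 in sham nuclei, a ratio of 0.832 (0.724 to 0.956). Sub-cluster 6, led by genes such as the water channel gene Aqp4 and the transcription factor gene Elf5 (41 and 28 nuclei), had 1353 and 951 CPM, a ratio of 1.42 (1.18 to 1.73). Scnn1b followed the same split, at 694 and 868 CPM in sub-cluster 5 and at 731 and 472 CPM in sub-cluster 6. The difference between the sub-clusters was not tested. Markers of other segments also differed: in sub-cluster 5, Slc8a1 of the connecting tubule had 4676 CPM in nephrectomy and 1635 in sham nuclei, Slc12a3 of the distal convoluted tubule 315 and 13.2, Kap of the proximal tubule 321 and 3151, and Aqp2 305 and 443. In sub-cluster 6 the values were 1396 and 919 CPM for Slc8a1, 23.0 and 25.5 for Slc12a3, 398 and 1628 for Kap, and 797 and 555 for Aqp2. In proximal tubule-like nuclei themselves Kap stood at 1114 nephrectomy and 5949 sham CPM. The part of these markers in the result was not tested. In the whole library the subunit sum was 166 CPM in the nephrectomy and 150 in the sham library, a ratio of 1.11 (1.06 to 1.16), which became 1.00 after thinning.

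**Figure D3:**
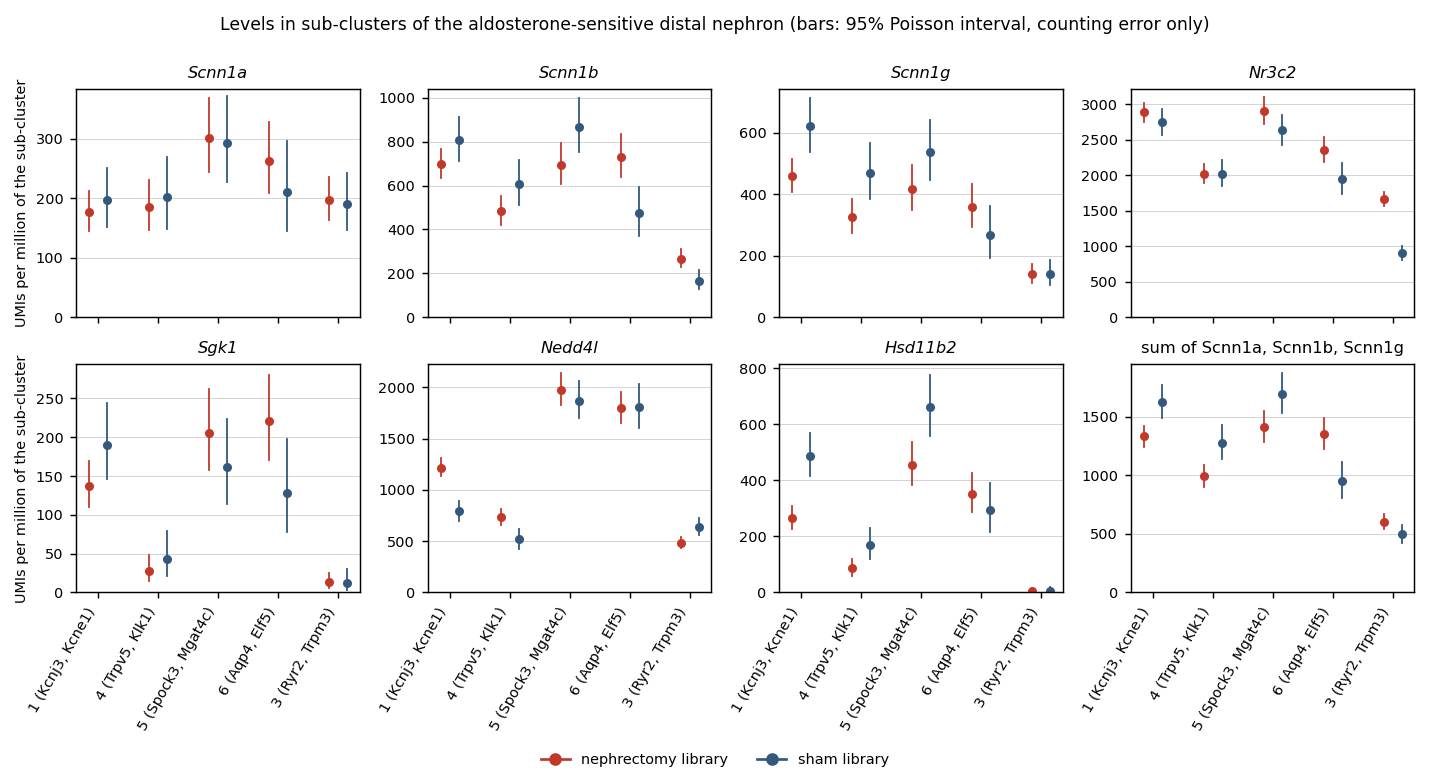
CPM of each gene in sub-clusters of connecting tubule-like (1 and 4), principal-like (5 and 6) and distal convoluted tubule-like (3) nuclei, nephrectomy (red) left of sham (blue), with 95% Poisson intervals for counting error only. In sub-clusters 1 and 4 the nephrectomy points lie below sham for Hsd11b2 and above it for Nedd4l, and for Scnn1b they lie below sham in sub-cluster 5 and above it in sub-cluster 6.

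In distal convoluted tubule-like nuclei the channel was low, with subunit sums of 705 nephrectomy and 373 sham UMIs. Sub-cluster 3, drawn mainly from this class (51 nephrectomy and 38 sham nuclei), has leading genes that include Ryr2 and Trpm3. The naming rule called it connecting tubule-like, with 98156 nephrectomy and 85974 sham CPM of Slc8a1. It also held the distal convoluted tubule marker Slc12a3 at 8766 and 9936 CPM, against 475 and 831 in sub-cluster 4, so it carried markers of both segments. It held 163 and 57 Scnn1b UMIs, against 18 and 2 in sub-cluster 0 and 19 and 22 in sub-cluster 2, while Scnn1a was spread over these sub-clusters, with 121 and 65, 175 and 82, and 84 and 64 UMIs. Scnn1b had 91.8 CPM in nephrectomy and 66.9 in sham nuclei of the whole class, a ratio of 1.37 (1.06 to 1.78), which became 0.963 when clusters were drawn at Leiden resolution 2. In sub-cluster 3 it had 266 and 166 CPM, a ratio of 1.60 (1.18 to 2.20), while Scnn1g had 140 and 140 CPM there. The 9 proximal tubule markers summed to 1014 CPM in nephrectomy and 4036 CPM in sham nuclei of this class. Of these sums, Kap made 366 and 2566 CPM, while Slc5a12 went the other way, at 143 and 79.8. Kap also differed in proximal tubule-like nuclei themselves, at 1114 nephrectomy and 5949 sham CPM. In distal convoluted tubule-like nuclei the estimated share of free RNA was 8.30% in the nephrectomy and 21.9% in the sham library. Sub-cluster 9, with 0 nephrectomy and 12 sham nuclei, 10 of them of this class, was named proximal tubule-like by its markers. The part of the markers and of free RNA in the result was not tested.

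The intercalated classes are small and their ratios are wide. In type A-like nuclei, Scnn1b had 104 nephrectomy UMIs and 29 sham UMIs (291 and 149 CPM), a ratio of 1.95 (1.28 to 3.06). Scnn1a went the other way, at 176 and 251 CPM, with a ratio of 0.701 (0.475 to 1.04). The subunit sum had a ratio of 1.25 (0.959 to 1.645), with an interval that includes 1. Scnn1g had 19 and 3 UMIs and Hsd11b2 20 and 3 UMIs in type A-like nuclei, and 9 and 11 of the nephrectomy UMIs came from single nuclei. In type A-like nuclei the 9 proximal tubule markers summed to 1406 CPM in nephrectomy and 4125 in sham nuclei, the 6 connecting tubule markers to 1417 and 2288, and the 5 type B markers to 1876 and 3165, with no marker of these lists at 0, and free RNA was estimated at 12.7% and 19.8%. Of the proximal tubule sums, Kap made 444.5 and 2073 CPM, while Slc27a2 went the other way, at 159 and 123. In proximal tubule-like nuclei themselves Kap stood at 1114 and 5949 CPM. The part of these markers and of free RNA in the result was not tested. Type B-like nuclei had less Scnn1b in the nephrectomy library, with 20 and 18 UMIs (31.6 and 75.0 CPM) and a ratio of 0.422 (0.212 to 0.846). The 6 connecting tubule markers summed to 2333 CPM in nephrectomy and 7508 in sham type B-like nuclei, and their part in the result was not tested. Free RNA was estimated at 29.9% of nephrectomy and 7.30% of sham UMIs in type B-like nuclei. Over the alternatives the type B ratios ran from 0.240 to 1.18 for Scnn1b, from 0.204 to 1 for Scnn1g, from 0.257 to 0.997 for Hsd11b2 and from 1.13 to 2.23 for Sgk1, so each of these 4 calls was lost under at least 1 alternative. Scnn1a had 195 and 221 CPM in type B-like nuclei, a ratio of 0.881 (0.634 to 1.24).

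The receptor gene Nr3c2 was counted as higher in 3 classes of the nephrectomy library: distal convoluted tubule-like, proximal tubule-like and type A intercalated-like nuclei. Distal convoluted tubule-like nuclei had 1290 CPM (2808 UMIs) in nephrectomy and 840 (1104 UMIs) in sham library nuclei, a ratio of 1.54 (1.43 to 1.65). Over the alternatives this ratio stayed between 1.29 and 1.62, on either side of the 1.5-fold limit. Free RNA was estimated at 8.30% of nephrectomy and 21.9% of sham UMIs in this class, and the cause of the ratio was not tested. Sub-cluster 9, of sham nuclei only and named proximal tubule-like, held 133 Nr3c2 UMIs at 594 CPM. Its part in the ratio was not tested on its own. The ratio was 1.84 (1.62 to 2.10) in sub-cluster 3, 1.35 (1.20 to 1.52) in sub-cluster 0 and 1.26 (1.09 to 1.47) in sub-cluster 2, so the 3 main sub-clusters of the class lay above 1. In connecting tubule-like and principal-like nuclei the ratios were 1.06 (0.991 to 1.12) and 1.07 (0.987 to 1.16). Intercalated type A-like nuclei had 1854 and 1175 CPM, a ratio of 1.58 (1.36 to 1.84), and a thinned ratio of 1.28. Proximal tubule-like nuclei had 142 and 84.4 CPM, a ratio of 1.68 (1.55 to 1.82), at a level far below the distal classes, and 1.18 when each library was clustered alone. Both calls were thus lost under an alternative. In the whole library Nr3c2 had 529 and 368 CPM, a ratio of 1.44 (1.40 to 1.48), and 1.31 after thinning. The share of the classes also differed between the libraries: in nephrectomy against sham it was 6.90% (6.03 to 7.86) against 5.13% (4.35 to 6.01) for distal convoluted tubule-like and 4.37% (3.67 to 5.16) against 3.30% (2.68 to 4.03) for connecting tubule-like nuclei, 2.63% (2.09 to 3.26) against 2.49% (1.95 to 3.14) for principal-like nuclei and 12.0% (10.9 to 13.2) against 14.1% (12.8 to 15.4) for thick ascending limb-like nuclei. More nuclei of a type and more RNA per nucleus cannot be told apart in the whole-library values.

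Hsd11b2, whose enzyme guards the receptor, was counted as lower in nephrectomy connecting tubule-like nuclei and was below the sham level, by less than 1.5-fold, in principal-like nuclei. Connecting tubule-like nuclei had 188 CPM (230 UMIs) in the nephrectomy and 348 (232 UMIs) in the sham library, a ratio of 0.539 (0.448 to 0.650), and 0.416 to 0.676 over the alternatives. The ratio was 0.540 (0.432 to 0.676) in sub-cluster 1 and 0.511 (0.317 to 0.822) in sub-cluster 4. A UMI was expected in 18.1% of nephrectomy and 31.0% of sham connecting tubule-like nuclei at 1000 UMIs, against 0.640% and 1.08% of proximal tubule-like nuclei. Principal-like nuclei had 371 and 473 CPM, a ratio of 0.785 (0.650 to 0.950), with 0.690 (0.545 to 0.873) in sub-cluster 5 and 1.20 (0.842 to 1.73) in sub-cluster 6. The 6 principal cell markers summed to 298 CPM in nephrectomy and 501 in sham connecting tubule-like nuclei, with 0 and 2 of the 6 markers at 0, and the 9 proximal tubule markers to 1044 and 3230; their part in the result was not tested. Of these principal cell markers, the water channel gene Aqp2 stood at 99.6 nephrectomy and 105 sham CPM in the same connecting tubule-like nuclei. Npnt was lower in the nephrectomy library, at 140 and 305 CPM, as were Aqp3 (44.9 and 61.5) and Avpr2 (11.43 and 30.01). Aqp4 and Elf5 each had 1 nephrectomy and 0 sham UMIs. The whole library had 28.4 and 34.5 CPM of Hsd11b2, a ratio of 0.823 (0.740 to 0.915).

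**Figure D4:**
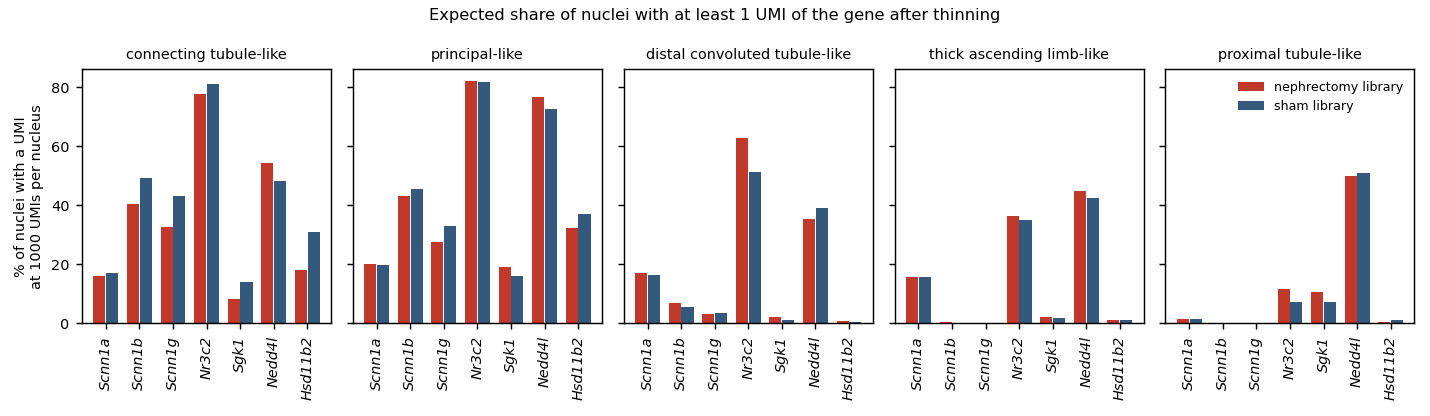
Expected share of nuclei with at least 1 UMI of each gene (%, axis from 0) after thinning every nucleus to 1000 UMIs, nephrectomy (red) left of sham (blue), in 5 classes. In connecting tubule-like nuclei the nephrectomy bars are shorter for Scnn1g (32.6% against 43.0%), Sgk1 (8.30% against 14.0%) and Hsd11b2 (18.1% against 31.0%).

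The kinase gene Sgk1 had ratios on both sides of 1. Connecting tubule-like nuclei had 84.1 CPM (103 UMIs) in the nephrectomy and 144 (96 UMIs) in the sham library, a ratio of 0.584 (0.438 to 0.779). Its ratio within sub-clusters 1 and 4 was 0.718 (0.512 to 1.01) and 0.646 (0.256 to 1.67), with intervals that include 1. Without sub-clusters that bore another cell type's name the class ratio was 0.708, which does not reach the 1.5-fold limit. Principal-like nuclei had 209 and 161 CPM, a ratio of 1.30 (0.967 to 1.76). Proximal tubule-like nuclei had 110 and 81.8 CPM, a ratio of 1.35 (1.24 to 1.47), and blood endothelial-like nuclei, where the level was highest, had 303 and 296 CPM, a ratio of 1.02 (0.854 to 1.22). In fibroblast-like nuclei 40 nephrectomy and 12 sham UMIs gave a ratio of 2.45 (1.26 to 5.14). The whole library had 95.8 and 78.8 CPM, a ratio of 1.22 (1.14 to 1.30).

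Nedd4l, whose product marks the channel for removal, stood above the sham level in connecting tubule-like nuclei of the nephrectomy library. It had 1000 CPM (1225 UMIs) in nephrectomy and 690 (460 UMIs) in sham nuclei, a ratio of 1.45 (1.30 to 1.62), just under the 1.5-fold limit. In sub-cluster 1 the ratio was 1.54 (1.33 to 1.78) and in sub-cluster 4 it was 1.42 (1.15 to 1.77). Without the nucleus with most UMIs in each library, the ratio in the class was 1.38. In distal convoluted tubule-like nuclei Nedd4l had 485 and 555 CPM, a ratio of 0.874 (0.794 to 0.961), and 0.866 to 0.946 over the alternatives. Sub-cluster 9, of sham nuclei only and mostly of this class, was named proximal tubule-like and held 173 Nedd4l UMIs at 773 CPM. Its part in the ratio was not tested on its own. Principal-like nuclei had 1806 and 1716 CPM, a ratio of 1.05 (0.959 to 1.16).

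The other genes of the pathway were taken as 6 lists. Of 9 measured genes for receptor chaperones, cofactors and the glucocorticoid side, 1 was higher and 5 were lower in connecting tubule-like nuclei, where 11.3% of all genes were higher and 16.2% lower, with a median log2 ratio of -0.60 against -0.03 over all genes, and in principal-like nuclei 1 was higher (Sirt1) and 4 were lower (Nr3c1, Hsp90ab1, Fkbp4 and Hsp90aa1), where the shares over all genes were 11.6% and 15.8%, with a median of -0.55 against -0.02. The lowest in connecting tubule-like nuclei was Fkbp4, a chaperone partner of steroid receptors, with 21 nephrectomy and 30 sham UMIs and a ratio of 0.381 (0.207 to 0.688). The other 4 lower genes, named after their values were seen, were Hsp90ab1 (0.558), Hsp90aa1 (0.581), Ptges3 (0.635) and Dot1l (0.657). The highest was Mllt3, which encodes a partner of the Dot1l histone methyltransferase, with 384 and 113 UMIs and a ratio of 1.85 (1.5 to 2.30). In the whole library 0 of 10 were higher and 4 lower (Hsp90ab1, Hsp90aa1, Hsd11b1 and Fkbp4), where 9.63% of all genes were higher and 10.8% lower, and the Hsp90 chaperone genes Hsp90ab1 and Hsp90aa1 had the lowest ratios of all lists, 0.524 (0.5 to 0.548) and 0.533 (0.501 to 0.568). The median of this list was also below 0 in proximal tubule-like (-0.31), thick ascending limb-like (-0.27), distal convoluted tubule-like (-0.235) and type A-like nuclei (-0.14). In type B-like nuclei it was 0.19. In proximal tubule-like nuclei Hsp90aa1 had a ratio of 0.497 (0.453 to 0.545). Of 9 measured aldosterone-induced genes, 1 was higher and 1 was lower in connecting tubule-like nuclei, beside the same 11.3% and 16.2% over all genes. The higher one was Zbtb16, a steroid-induced transcription factor gene, with 95 and 28 UMIs and a ratio of 1.85 (1.20 to 2.92). The lower one was Fxyd4, which encodes a sodium pump regulator, with 38 and 44 UMIs and a ratio of 0.470 (0.296 to 0.742), and the list had a median of 0.43. In principal-like nuclei 0 of 8 were higher and 1 was lower, Tsc22d3, a steroid-induced leucine zipper gene, with 13 and 29 UMIs and a ratio of 0.277 (0.132 to 0.550). In the whole library 3 of 10 were higher and 0 lower: Edn1, an endothelin gene, at 2.06 (1.39 to 3.13), Fkbp5, a steroid-induced immunophilin gene, at 1.57 (1.52 to 1.62), and Per1, a clock gene, at 1.53 (1.40 to 1.68). In proximal tubule-like nuclei 3 of 9 were higher and 0 lower, beside 11% and 11.6% of all genes: Zbtb16 at 2.03 (1.91 to 2.16), Per1 at 1.89 (1.67 to 2.15) and Fkbp5 at 1.86 (1.78 to 1.94). Nr3c2 (142 and 84.4 CPM) and Hsd11b2 (6.61 and 7.12 CPM) were low in these nuclei. Whether any steroid acted there was not tested. The libraries filled the proximal tubule-like clusters unevenly, with 475 nephrectomy and 95 sham nuclei in cluster 1 and 3 and 273 in cluster 10. The part of this mix in the ratios was not tested. Fkbp5 also had 758 and 321 UMIs in distal convoluted tubule-like nuclei, a ratio of 1.43 (1.25 to 1.63).

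The remaining lists had fewer genes past the limit in connecting tubule-like nuclei. Over all genes, 11.3% were higher and 16.2% lower in that class. These shares were 11.6% and 15.8% in principal-like nuclei and 9.63% and 10.8% in the whole library. With so few genes per list, counts of 1 or 2 genes are not read as a result about a list. Among SGK1 activators and ligase partners, 1 of 12 was higher and 0 lower in connecting tubule-like nuclei, and the higher gene, Mlst8, had 17 and 3 UMIs. In principal-like nuclei 0 of 11 were higher and 1 was lower (Ywhab, with 18 and 19 UMIs), and in the whole library 0 of 12 were higher or lower. Among proteases that cleave the channel and their inhibitors, 1 of 6 was higher and 0 lower in connecting tubule-like nuclei. The higher gene was Tmprss2, a membrane serine protease gene, with 673 and 242 UMIs and a ratio of 1.51 (1.30 to 1.76), and it had 273 and 115 UMIs in principal-like nuclei, a ratio of 1.47 (1.18 to 1.84). In principal-like nuclei 0 of 7 were higher and 2 lower (Prss8, with 11 and 18 UMIs, and Plau, with 7 and 13), and in the whole library 2 of 9 were higher (Tmprss4 and Tmprss2) and 1 lower (Plau). Among sodium pump and potassium channel genes, 0 of 6 were higher or lower in connecting tubule-like nuclei. In principal-like nuclei 0 of 7 were higher and 2 lower: Fxyd2, a sodium pump regulator gene, had a ratio of 0.505 (0.421 to 0.606), and Kcnma1, the large-conductance potassium channel gene, had 7 and 23 UMIs, a ratio of 0.188 (0.0682 to 0.453). In the whole library 2 of 9 were higher (Kcnma1 and Kcnmb2) and 1 was lower (Fxyd2), and the ratio of Kcnmb2, a regulatory subunit gene of the Kcnma1 channel, was 8.12 (5.43 to 12.7), from 281 and 26 UMIs. Kcnmb2 was among the leading genes of cluster 16, which was left unnamed and held 77 nephrectomy and 37 sham nuclei. The part of this cluster in the ratio was not tested. Of the immediate early genes, which respond to tissue handling, 1 was measured in connecting tubule-like nuclei and was lower (Ier3, with 73 and 81 UMIs), and in the whole library 2 of 9 were higher and 0 lower, with Egr1 at 75 and 18 UMIs and Fos at 27 and 8.

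**Figure D5:**
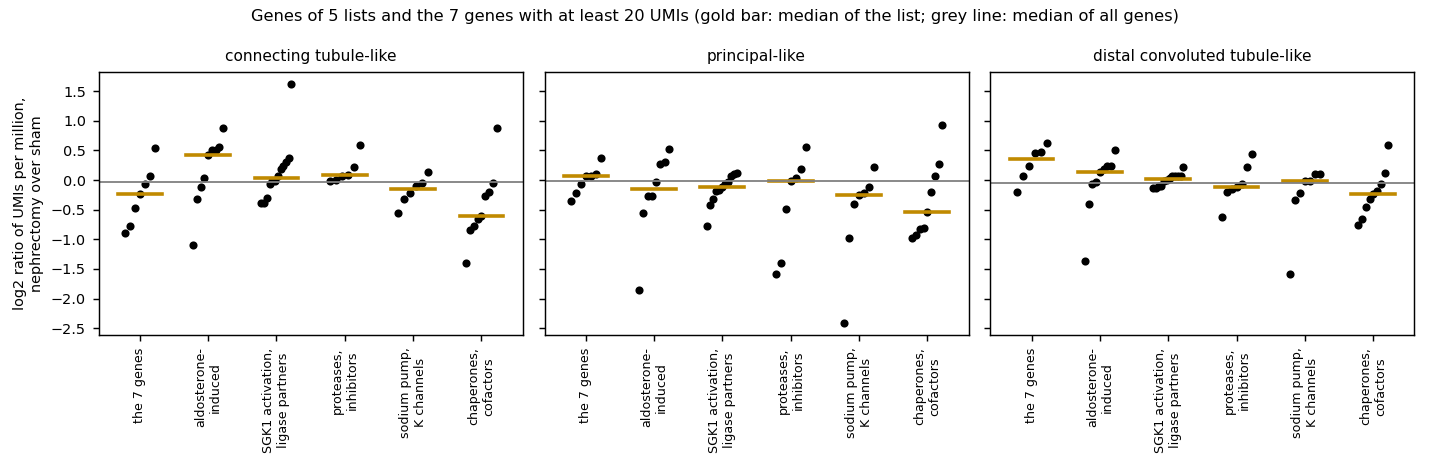
Log2 ratio of CPM, nephrectomy over sham, for the 7 genes and for the genes of 5 pathway lists that had 20 UMIs or more, in 3 classes; gold bars are list medians and the grey line is the median of all genes measured. The chaperone and cofactor list has the lowest median in connecting tubule-like nuclei (-0.60), principal-like nuclei (-0.55) and distal convoluted tubule-like nuclei (-0.235).

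Likeness of pattern was measured as Pearson's r of log2(CPM + 5) over 22 points, the 11 classes in both libraries, among 12256 genes with at least 100 UMIs; the points share libraries and depth, and r is given as a description. The gene most like Scnn1b was Scnn1g (r = 0.949), followed by Gata3, a collecting duct transcription factor gene (0.942), and Cog7 (0.937), the gene that overlaps Scnn1b on the other strand. Cog7 had 171 CPM in nephrectomy and 269 in sham connecting tubule-like nuclei, and 223 and 314 CPM in principal-like nuclei, but 33.1 and 33.4 CPM in proximal tubule-like nuclei. Its ratio in connecting tubule-like nuclei, 0.635 (0.518 to 0.780), had the direction of Scnn1b. Scnn1g was most like Scnn1b, Cog7 (0.930) and Kcne1 (0.920), and Scnn1a was most like Grhl2, an epithelial transcription factor gene (0.986), Sgpp2 and Ptpn18. The genes nearest to Nr3c2 included Akap17b and Tbc1d2, and Hsd11b2 was nearest to Kif26b (0.941), Kcne1 and Hif1a. Sgk1 was nearest to Dip2c (0.883), Cdk6 and Ptpre, and Nedd4l to Zswim5 (0.941), Plekhh1 and Prkcd. The genes nearest to the summed subunits included Ipcef1 (0.964), Blnk, Grb14 and Il17re. Among the 7 genes themselves, Sgk1 had the weakest likeness to the channel subunits, with r of -0.115 to Scnn1a, 0.157 to Scnn1b and 0.279 to Scnn1g.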

How the data were processed

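Per the file headers and the submitters' processing notes, the authors made the deposited UMI counts with Cell Ranger (7.0.1 in the header, 7.1.0 in the notes) on mm10; intron counting and barcode calling are not given in the sources used here. Barcodes needed 200 genes or more and no more than 10% of UMIs from mitochondrial genes. Nuclei with the top 3% of Scrublet scores per library were left out, and so were clusters with at least 20% of such nuclei. Both libraries, which share 2 barcodes, were clustered together (2000 variable genes, 30 components, 15 neighbours, Leiden resolution 1) and named by markers (at least 3, at least 2-fold). The gap between first and second name (0.25 log2) and the rule on clusters over 3-fold deeper than their class were set after seeing the data. Ratios have exact conditional binomial intervals, levels Poisson intervals, and thinning used hypergeometric expectations. The ratio, its interval and the 1.5-fold rule were run on simulated Poisson counts, which is what the interval assumes. UMIs gathered in single nuclei were not simulated, so that run cannot check the intervals for such counts. Members and lists were chosen with earlier results of these data known. Of the lists, the 2 highest and 2 lowest genes per class were named, with the exceptions of likeness genes (the nearest 3, or 5 for the sum, of which 1 gene is not reported here), class markers, leading genes of sub-clusters, genes behind counts of 5 or fewer and Cog7, the last 2 kinds described after their values were seen. Tools were Python 3.11.15, scanpy 1.11.5, scipy 1.17.1, leidenalg 0.10.2 and, for TMM, edgeR 4.0.16.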

Additional observations from a re-analysis of the deposited data

Results flagged for a closer look

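For 6 of the genes, the ratios of nephrectomy to sham in a pair of classes lay on opposite sides of 1 with intervals that exclude 1; with 1 library per group the difference between classes was not tested. Scnn1b had ratios of 2.11 in proximal tubule-like and 0.365 in mural-like nuclei, and Scnn1g 4.81 and 0.421; the mural-like cluster was shallow, with median depths of 1332 nephrectomy and 1955 sham UMIs, it held 2555 and 6318 CPM of the connecting tubule marker Slc8a1, 197 and 584 of Calb1 and 194 and 402 of Slc12a3, 16 of its 40 sham Scnn1b UMIs came from 1 nucleus, and the proximal tubule values rest on 36 against 14 and 41 against 7 UMIs. Nr3c2 had 1.68 in proximal tubule-like and 0.868 in intercalated type B-like nuclei. Sgk1 had 2.45 in fibroblast-like and 0.584 in connecting tubule-like nuclei. Nedd4l had 1.51 in fibroblast-like and 0.874 in distal convoluted tubule-like nuclei, and 58 of the 109 nephrectomy UMIs in fibroblast-like nuclei came from 1 nucleus. Sub-cluster 9, of 12 sham nuclei mostly of the distal convoluted tubule-like class but named proximal tubule-like, held 173 Nedd4l UMIs. Hsd11b2 had 3.63 in intercalated type A-like and 0.469 in type B-like nuclei, and the type B ratio was 0.997 at Leiden resolution 0.5.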

How the results depend on the processing

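Of the recomputed ratios of the 5 main results, 39 stayed within the main interval, 6 moved outside it and 1 changed sign; of the other ratios, 595 stayed, 41 moved and 13 changed sign, and the cause was not tested. The whole-library ratio of the subunit sum (1.11) was 1.01 with equal weight per nucleus and 1.00 after thinning, and that of Nr3c2 (1.44) was 1.33 and 1.31. In connecting tubule-like nuclei the subunit sum (0.812) was 0.742 with high doublet scores kept, 0.682 with each library clustered alone and 1.00 after the stricter filter (500 genes, 5% mitochondrial UMIs) with new clusters, where Scnn1b (0.849) was 1.06; at Leiden resolution 0.5 no such class formed. At Leiden resolution 2, Scnn1b was 0.963 and the subunit sum 0.988 in distal convoluted tubule-like nuclei, and Scnn1b 0.933 in proximal tubule-like nuclei; Scnn1g there was 0.556 with each library clustered alone. In intercalated type B-like nuclei, Scnn1b was 1.18 at resolution 0.5; Nr3c2 was 1.01 with equal weight, 1.21 after thinning, 1.11 at resolution 0.5 and 1.01 with free RNA subtracted; and Nedd4l was 1.04 with high doublet scores kept, 1.04 with libraries clustered alone and 1.09 with free RNA subtracted. With no UMI minimum, 2 of 7 genes were higher and 0 lower in distal convoluted tubule-like nuclei, beside 2672 and 4856 of all 17988 genes. At a ratio of at least 2, none of the genes measured was higher or lower there, in connecting tubule-like or principal-like nuclei or in the whole library. All-gene counts were, in that order, 334 and 672 of 10521, 328 and 463 of 8780, 250 and 398 of 7582, and 655 and 524 of 17330. At that ratio, type A-like nuclei had 2 of 6 higher (346 of 5305 genes) and proximal tubule-like nuclei 2 of 7 (574 of 14491). Type B-like nuclei had 1 of 7 higher and 3 lower (809 and 345 of 6761 genes). No paired analysis was possible because each group is 1 library with no test. The alternatives of a stricter filter within the main classes, of leaving out sub-clusters named for another cell type, and of leaving out the nucleus with most UMIs were chosen after seeing the data.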

Other observations

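Proximal tubule-like nuclei hold the receptor at a low level but fall into several clusters that the libraries fill unevenly. Cluster 10, with 3 nephrectomy and 273 sham nuclei, is left out below, and ratios over the whole class compare different mixes of clusters. Nr3c2 was above the sham level in each of the 4 clusters with at least 50 nuclei in both libraries, with ratios of 2.13 (1.67 to 2.74) in cluster 1, 1.16 (1.03 to 1.32) in cluster 2, 1.75 (1.43 to 2.14) in cluster 5 and 1.47 (1.16 to 1.86) in cluster 8. Sgk1 did not share this: its ratio was 0.678 (0.584 to 0.789) in cluster 1, which held 475 nephrectomy and 95 sham nuclei, and 1.54 (1.24 to 1.92) in cluster 2, 1.61 (1.24 to 2.08) in cluster 5 and 1.28 (1.05 to 1.55) in cluster 8. Nedd4l was 1.58 (1.51 to 1.66) in cluster 8, with 2173 CPM in nephrectomy and 1373 in sham nuclei, and 0.858 (0.803 to 0.917) in cluster 2.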
